A study of Mus musculus with 31 samples.

Results

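The chromatin at 10 antioxidant genes of the NRF2 pathway was described in 1 ATAC-seq library of parental NIH-3T3 cells. The genes, a list of names drawn up with earlier results of these data known, were the regulators Nfe2l2, Keap1 and Bach1, the quinone reductase Nqo1, the haem oxygenase Hmox1, the glutathione genes Gclc, Gclm and Slc7a11, and the thioredoxin genes Srxn1 and Txnrd1. They are 10 of the 21938 protein-coding genes of the annotation, and 67 of the 63456 peaks of the library overlapped them or lay within 25 kb of them. In ATAC-seq the Tn5 transposase inserts sequencing adaptors where DNA is open, and sites without nucleosomes therefore gather many fragments. NIH-3T3 is an established mouse embryonic fibroblast line. The parental cells carried no TF transgene, and 50000 of them were treated with 0.5 µM Tn5. The labels list no doxycycline for them, while the methods describe 48 h of it at 500 ng ml−1 without setting the parental line apart, so whether the parental cells received it is not known. The other 30 samples, which overexpress 1 of 13 TFs or carry rtTA3G alone (4 of them), were not analysed here.

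NRF2, encoded by Nfe2l2, is a basic leucine zipper TF that pairs with small MAF proteins and binds the antioxidant response element (ARE). KEAP1 is the adaptor that presents NRF2 to a CUL3 ubiquitin ligase in unstressed cells and loses this function when its cysteines react with electrophiles. BACH1 is a haem-sensitive repressor that binds the same elements, and the AP-1 factors of the FOS and JUN families, which are active in cultured fibroblasts, recognise a sequence contained in many AREs.

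Each peak carries a fold enrichment, the ratio of the fragments at its summit to those expected there, and a −log10 q, both from the authors' peak caller. The number of fragments at the summit was solved from the fold and the −log10 p of the same caller. It is given with an exact 95% Poisson interval that covers counting error only. With 1 library there is no replicate and no test. Peaks of 1 library are not replicates of a condition. Transcript levels were not analysed here, and a peak gives no level of expression. The lowest summit in the list held 10 fragments and the median summit 29. All 10 of the listed fibroblast genes had a peak within 1 kb of a transcription start, compared to 0 of 3 pluripotency genes, 0 of 2 hepatocyte genes, 1 of 4 blood genes (Spi1, fold 3.22) and 1 of 5 epithelial genes (Krt8, fold 3.25). The median fold of the fibroblast genes was 6.47, below the 9.86 of all coding genes with such a peak. Thy1 (fold 3.41, 12 fragments) and Prrx1 (fold 3.65, 22 fragments) were close to Spi1 and Krt8. All 3 endothelial genes also had a peak within 1 kb of a start, at folds of 8.40 (Pecam1), 12.8 (Cdh5) and 3.58 (Tek). This goes against their being closed in a fibroblast line. The part of this in the results below was not tested.

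The promoters of all 10 genes were accessible. A promoter peak is a peak whose interval lies within 1 kb of a start of the gene, and 53.7% of all protein-coding genes had one. The 10 genes had 12 such peaks, since Bach1 and Txnrd1 had a second one, and 13.0% of coding genes had more than 1. The interval of at least 1 peak overlapped a start itself in every one of the 10 genes, and no share of coding genes under this stricter rule is given. At the sequence level, 6 of the 10 had the core of the ARE, TGACNNNGC on either strand, somewhere in a promoter peak. Among coding genes with a promoter peak 36.4% did. Their 10 matches are the first sequences to show, because the bases between TGAC and GC differ from gene to gene. Each is read on the strand where it begins with TGAC, with the core in capitals and 10 bases to either side, in mm10 coordinates, and its position is the distance of its centre from the nearest start of the gene, in the direction of the gene:
Nfe2l2, −258 bp, chr2:75704885-75704913, − strand: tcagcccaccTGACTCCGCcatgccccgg
Nfe2l2, +508 bp, chr2:75703967-75703995, + strand: cgcggccccgTGACTAGGCacatttttac
Keap1, −31 bp, chr9:21238830-21238858, + strand: cgggtcacggTGACTAAGCacagcgcgcc
Bach1, +517 bp, chr16:87699507-87699535, − strand: acgtctgcctTGACTCAGCgcacgctgaa
Bach1, +1103 bp, chr16:87700093-87700121, − strand: ctggggtgaaTGACTCAGCaacacaaact
Gclm, −130 bp, chr3:122245413-122245441, − strand: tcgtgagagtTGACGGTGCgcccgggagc
Gclm, −12 bp, chr3:122245642-122245670, − strand: tggaagacaaTGACTAAGCagaaacctca
Srxn1, +32 bp, chr2:152105542-152105570, − strand: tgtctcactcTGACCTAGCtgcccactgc
Txnrd1, −367 bp, chr10:82858798-82858826, − strand: gcactggctgTGACCCTGCcaaatagttg
Txnrd1, −61 bp, chr10:82859104-82859132, − strand: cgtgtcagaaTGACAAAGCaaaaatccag

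Some of these spellings recurred. Keap1 and Gclm held the same 9 bases, TGACTAAGC, close before an inner start (transcripts Keap1-202 and Gclm-206). Both matches lie inside the annotated gene, downstream of its outermost start at 21239361 and 122245557. Both Bach1 peaks held TGACTCAGC, in which the AP-1 consensus TGACTCA and the ARE core overlap. Nfe2l2 had TGACTCCGC upstream of its start. The 12 promoter peaks held 1.0 ARE core per kb, compared to 0.529 per kb in all 16264 peaks within 1 kb of any start, and 7 of the 12 (58.3%, 95% Wilson interval 32.0 to 80.7) held at least 1, compared to 27.9%. At the summits themselves the difference was not seen, as 1 of 12 promoter peaks (8.33%, 1.49 to 35.4) and 6.74% of all such peaks had a core wholly within 50 bp of the summit. A match describes the letters of the reference and is not evidence that a factor was bound.

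Nqo1, Hmox1, Gclc and Slc7a11 held no TGACNNNGC in their promoter peaks. A spelling with G as the fourth base, TGAGNNNGC, was added after these results were seen. With either spelling, all 10 genes had a match in a promoter peak, and so did 65.8% of coding genes with a promoter peak. The G spelling alone was found in 7 of 12 promoter peaks and in 37.9% of all peaks within 1 kb of a start. Of these matches, 3 are shown, since Nqo1 and Srxn1 share the same core, TGAGTCGGC, and a second Srxn1 core contains the AP-1 consensus TGAGTCA:
Nqo1, −431 bp, chr8:107403623-107403651, − strand: agagtcacagTGAGTCGGCaaaatttgag
Srxn1, −146 bp, chr2:152105356-152105384, − strand: ccagagaggaTGAGTCGGCtctcagtaga
Srxn1, −33 bp, chr2:152105469-152105497, + strand: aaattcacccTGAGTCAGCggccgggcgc

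**Figure D1:**
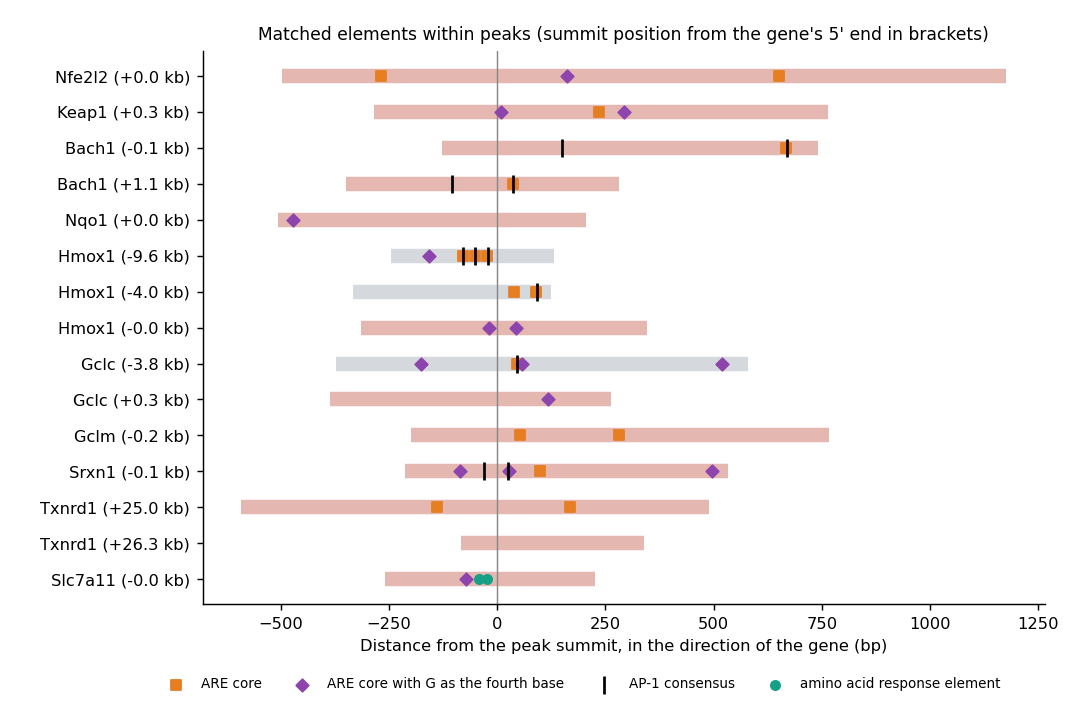
Positions of matched elements (markers) within the promoter peaks of the 10 genes (red bars) and the upstream peaks of Hmox1 and Gclc with TGACTCAGC (grey bars). The horizontal axis gives the distance from the peak summit in bp, in the direction of the gene. The 3 overlapping squares and lines at the peak of Hmox1 at −9588 bp are 3 copies of TGACTCAGC, and the second promoter peak of Txnrd1 holds no match.

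Outside the promoters, the sequence that stood out was the combined element TGACTCAGC at Hmox1. Its peak at −9588 bp held 3 copies, all in the same direction, whose starts were 28 and 29 bp apart. Of the 63456 peaks of the library, 3.9% held at least 1 copy, 109 held at least 2 and 17 held at least 3. The cutoff of 3 is the count of this Hmox1 peak itself, so its rarity is a description and not a test. Among those 17 peaks the fold enrichment ranged from 3.41 to 15.99, and only the peak nearest to Eya1 had a higher fold (15.99) than the peak of Hmox1 (14.2). A second upstream peak of Hmox1 and an upstream peak of Gclc held 1 copy each. These 3 regions are shown in the direction of the gene, with each copy in capitals, where GCTGAGTCA is TGACTCAGC read on the other strand:
Hmox1, peak at −9588 bp, chr8:75083939-75084024, + strand: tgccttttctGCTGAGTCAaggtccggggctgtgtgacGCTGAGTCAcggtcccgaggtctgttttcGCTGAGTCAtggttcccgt
Hmox1, peak at −3957 bp, chr8:75089740-75089768, + strand: gacagattttGCTGAGTCAccctctgttc
Gclc, peak at −3831 bp, chr9:77750735-77750763, + strand: cgcgcagagtGCTGAGTCAcggtgaggcg

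Overall counts of this element have to be read against the library. TGACTCAGC lay within 50 bp of a summit for 3 of the 10 genes (Bach1, Hmox1 and Gclc), compared to 6.82% of coding genes, or 8.98% of the 15106 coding genes with 2 to 15 peaks in or near them. Anywhere in a peak it was found for 5 of 10, with Gclm and Txnrd1 added, compared to 12.1% of all coding genes. This share is not matched for the number of peaks, whose median was 5.5 for the 10 genes and 3 for coding genes. The copy of Gclm lay in a peak closest to the start of Bcar3, and that of Txnrd1 in a peak 82749 bp from its 5′ end.

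The regulators had unequal promoter peaks, the strongest of which were 1674 bp (Nfe2l2), 1049 bp (Keap1) and 869 bp (Bach1) wide. Nfe2l2, at chr2:75675513-75704641 on the − strand, had a promoter peak at chr2:75703455-75705128 whose summit held 124 fragments (103 to 148) at a fold of 10.5 and a −log10 q of 80.5. This was the second highest fragment count among the 10 genes, while its fold lay at the 57.1st percentile of coding genes with a promoter peak. A start of the annotated gene E030042O20Rik lies within 1 kb of the same peak, so accessibility at these starts cannot be told apart. In an intron, 15566 bp from the 5′ end, Nfe2l2 had a second strong peak (chr2:75688913-75689381) with a fold of 9.71 and 59 fragments (44.9 to 76.1). Its highest fold outside the promoter, 10.9, belonged to a peak 45623 bp downstream of its 5′ end that covers the starts of Hnrnpa3 and Gm24574. That peak held an ARE core at its summit, which lay 243 bp from the start of Hnrnpa3.

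Keap1 had the fewest promoter fragments of the 10 genes. The gene lies at chr9:21229730-21239361 on the − strand, and its promoter peak (chr9:21238317-21239365) had a fold of 8.50, a −log10 q of 29.2 and 49 fragments (36.3 to 64.8), at the 36.6th percentile. The peak covered 5 of its 6 annotated starts. A peak beyond its 3′ end at the start of Gm16754 was as deep, with 49 fragments and a fold of 8.94. An AP-1 consensus was found at the summit of a weak peak at −21363 bp (chr9:21260626-21260820, fold 3.62, 18 fragments, 10.7 to 28.4), whose nearest coding gene was Atg4d.

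Bach1 had the most peaks with an AP-1 consensus at the summit of the 10 genes. AP-1 consensus means TGACTCA or its reverse complement TGAGTCA, wholly within 50 bp of the summit. Bach1, at chr16:87698945-87733346 on the + strand, had its first promoter peak at chr16:87698726-87699594, with a fold of 9.23, a −log10 q of 52.0 and 86 fragments (68.8 to 106), at the 43.8th percentile. The second (chr16:87699721-87700352) had its summit 1126 bp into the gene, in an intron, with a fold of 8.50, a −log10 q of 45.2 and 79 fragments (62.5 to 98.5). Both were thus accessible to a like degree, and each held 1 TGACTCAGC, at 517 and 1103 bp from the nearest start. The copy in the second peak lay 36 bp from the summit. AP-1 consensus was also present at the summits of a peak at −9450 bp (chr16:87689086-87689701, fold 10.6, 63 fragments, 48.4 to 80.6) and of intronic peaks at 14263 bp (chr16:87712935-87713287, fold 8.59, 43 fragments, 31.1 to 57.9) and 26036 bp (chr16:87724876-87725130, fold 6.25, 27 fragments, 17.8 to 39.3). For each of them Bach1 was the nearest coding gene. These windows are shown together with the promoter of Srxn1, the only other promoter among the 10 with the AP-1 consensus at its summit, in the direction of the gene and with AP-1 in capitals:
Srxn1, promoter, chr2:152105414-152105493, + strand: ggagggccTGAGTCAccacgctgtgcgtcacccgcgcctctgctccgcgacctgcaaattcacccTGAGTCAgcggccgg
Bach1, peak at −9450 bp, chr16:87689462-87689525, + strand: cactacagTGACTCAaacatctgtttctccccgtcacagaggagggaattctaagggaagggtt
Bach1, peak at 14263 bp, chr16:87713175-87713238, + strand: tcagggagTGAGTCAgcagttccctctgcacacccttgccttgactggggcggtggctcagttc
Bach1, peak at 26036 bp, chr16:87724933-87725011, + strand: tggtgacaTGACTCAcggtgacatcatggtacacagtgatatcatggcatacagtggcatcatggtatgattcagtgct

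In Srxn1, which encodes sulfiredoxin, the enzyme that reduces overoxidised peroxiredoxins, the copies of TGAGTCA lay at −91 and −34 bp from the start. Of all coding genes with a promoter peak, 7.07% had an AP-1 consensus at the summit of one, and of all peaks within 1 kb of a start, 8.15% did. With 2 of 10 genes and 2 of 12 peaks (16.7%, Wilson interval 4.70 to 44.8), the set was too small to be told from that background. The promoter peak of Srxn1 (chr2:152105243-152105988) was among the strongest of the set, with a fold of 12.6, a −log10 q of 78.7 and 107 fragments (87.7 to 129), at the 77.4th percentile. The gene (chr2:152105516-152111376, + strand) had only 1 further peak, past its 3′ end, with a fold of 6.25 and 31 fragments (21.1 to 44.0).

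**Figure D2:**
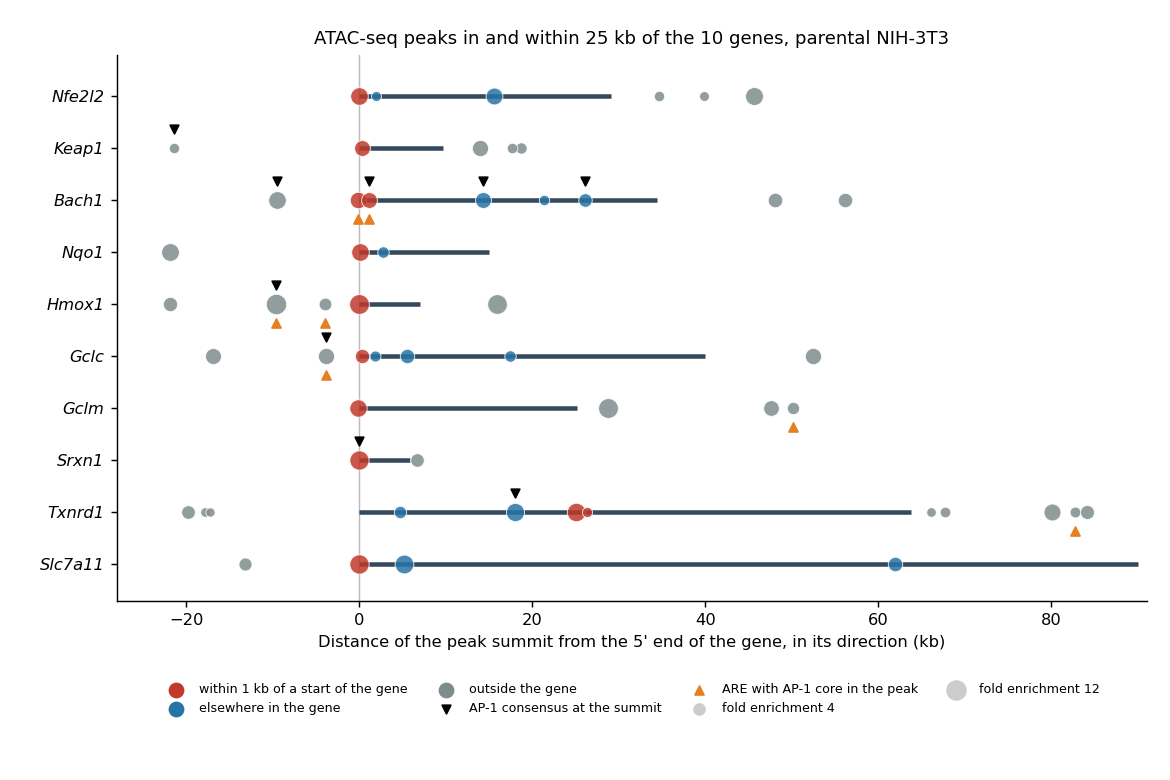
Peaks in and within 25 kb of the 10 genes, by the distance of the summit from the 5′ end of the gene in kb (dark bars, annotated gene), with the area of each dot in proportion to its fold enrichment. Black triangles mark an AP-1 consensus at the summit and orange triangles a TGACTCAGC in the peak. The 11 peaks of Slc7a11 more than 100 kb from its 5′ end are not drawn, and Bach1 has 4 peaks with AP-1 at the summit.

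Hmox1, which encodes the inducible enzyme that breaks down haem, had the highest promoter fold of the 10 genes and the highest fold of all 67 peaks. The gene lies at chr8:75093621-75100589 on the + strand. Its promoter peak (chr8:75093261-75093921) had a fold of 13.3, a −log10 q of 71.9 and 94 fragments (76.0 to 115), at the 82.0th percentile. The peak at −9588 bp (chr8:75083788-75084164) had a fold of 14.2, a −log10 q of 66.7 and 83 fragments (66.1 to 103), so that it and the promoter did not differ beyond their counting intervals. The peak at −3957 bp (chr8:75089330-75089788) was lower, with a fold of 5.47, a −log10 q of 15.6 and 38 fragments (26.9 to 52.2). It held an ARE core, GCTGTGTCA in the direction of the gene, within 50 bp of its summit, and the TGACTCAGC lay 90 bp from the summit. A further upstream peak at −21885 bp was closer to Tom1, and a downstream peak with a fold of 13.1 lay at the start of Mcm5.

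Nqo1, which encodes a cytosolic reductase of quinones, had a plain arrangement of 3 peaks. The gene lies at chr8:107388225-107403206 on the − strand, and its promoter peak (chr8:107402960-107403672) had a fold of 10.6, a −log10 q of 61.5 and 93 fragments (75.1 to 114), at the 57.5th percentile. The intronic peak at 2690 bp was weaker (fold 4.45, 36 fragments, 25.2 to 49.8). The peak at −21883 bp (fold 10.8, 55 fragments, 41.4 to 71.6) covered the start of Nob1. No peak of Nqo1 held an AP-1 consensus, and the only ARE core with C as the fourth base was in the peak at the start of Nob1. The TGAGTCGGC shown above lay −431 bp from the start and 472 bp from the summit, near the edge of the promoter peak.

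The glutathione genes ranged from the lowest promoter fold of the set, at Gclc, to one of the highest, at Slc7a11. Gclc encodes the catalytic and Gclm the modifier subunit of glutamate-cysteine ligase, which makes the first intermediate of glutathione, and Slc7a11 encodes the cystine transporter xCT that supplies its cysteine. Gclc (chr9:77754535-77794485, + strand) had the weakest promoter of the 10 genes by fold. Its peak (chr9:77754462-77755109) had a fold of 6.94, a −log10 q of 30.2 and 61 fragments (46.7 to 78.4), at the 22.3rd percentile. The peak at −3831 bp (chr9:77750332-77751283), which holds TGACTCAGC 45 bp from its summit, had a fold of 8.97, a −log10 q of 44.3 and 74 fragments (58.1 to 92.9). Its fold was thus above that of the promoter, although the counting intervals overlapped. Gclc was the nearest coding gene of all 7 of its peaks.

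Gclm (chr3:122245557-122270732, + strand) had a promoter peak (chr3:122245177-122246141) with a fold of 10.3, a −log10 q of 57.4 and 88 fragments (70.6 to 108), at the 54.6th percentile. All 3 of its other peaks lay past its 3′ end and nearer to other genes. The strongest, with a fold of 13.2 and 72 fragments (56.3 to 90.7), was at the start of Dnttip2, and the next at the start of Bcar3. So the promoter was the only peak of Gclm that could be given to it by distance.

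Slc7a11 had a sharp promoter peak over a low background. The peak (chr3:50443408-50443894) had a fold of 12.7 at the 78.0th percentile, but only 54 fragments (40.6 to 70.5) and a −log10 q of 42.6. The pileup expected at its summit was 3.32 fragments, the lowest among the 12 promoter peaks, compared to 10.6 at the strongest peak of Txnrd1. Its promoter window held 2 copies of TGATGCAA, at −43 and −62 bp from the start. This sequence is known as an amino acid response element, the site of ATF4, and was added after the first results were seen. It was present at the summit of 34 of the 16264 peaks within 1 kb of a start (0.209%) and in 0.895% of the RefSeq promoters described further on. The window is shown in the direction of the gene with both copies in capitals, the second of which reads TTGCATCA:
Slc7a11, promoter, chr3:50443615-50443687, − strand: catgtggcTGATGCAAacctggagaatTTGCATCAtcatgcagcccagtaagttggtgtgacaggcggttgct

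Slc7a11 also showed how far the annotation sets the count of peaks. In the annotation the gene covers chr3:49892526-50443614 on the − strand, or 551089 bp, because of a single transcript, while the next longest protein-coding transcript spans 78674 bp. Of its 15 peaks, 11 lay more than 100 kb from the 5′ end. The highest fold among them, 12.9 with 56 fragments (42.3 to 72.7), was at the start of the annotated gene Gm37854, and the only AP-1 consensus at a summit of Slc7a11 was at 482906 bp (chr3:49960649-49960856, fold 4.99, 18 fragments, 10.7 to 28.4). Closer to the start, an intronic peak at 5205 bp (chr3:50437973-50438534) had a fold of 12.0 and 60 fragments (45.8 to 77.2), so that it did not differ from the promoter beyond counting error.

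Txnrd1, which encodes the cytosolic thioredoxin reductase, had peaks at some but not all of its annotated starts. The gene covers chr10:82833951-82897712 on the + strand. Its outermost start, at 82833951, lay 4634 bp from the closest peak. The starts of the transcripts from 82859179 to 82859259 lay in the peak at chr10:82858358-82859439, which had the highest fragment count of the 10 genes, 133 (111 to 158), with a fold of 11.6 and a −log10 q of 91.5, at the 67.9th percentile. A start of the annotated gene Gm38560 lies within 1 kb of the same peak, so accessibility at these starts cannot be told apart. A second promoter peak (chr10:82860201-82860625) was weak, with a fold of 3.51, a −log10 q of 9.44 and 40 fragments (28.6 to 54.5). Between the outermost start and the strong promoter, a peak at 17974 bp (chr10:82851671-82852089, fold 11.2, 60 fragments, 45.8 to 77.2) held an AP-1 consensus at its summit, and it lay at the start of the annotated gene Gm47073. Outside the gene, 8 peaks were found, the strongest of which was 80037 bp from the 5′ end with a fold of 9.77 and 87 fragments (69.7 to 107).

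Side by side, the order of the promoters depended on the measure. By fold enrichment it was led by Hmox1, Slc7a11 and Srxn1 and ended with Bach1, Keap1 and Gclc. By fragments at the summit it was led by Txnrd1, Nfe2l2 and Srxn1 and ended with Gclc, Slc7a11 and Keap1. The counting intervals of neighbours in the second order overlapped throughout, and those of Txnrd1 and Keap1 did not. The median of the strongest promoter fold was 10.55 over the 10 genes (6.94 to 13.29) and 9.86 over the 11788 coding genes with a promoter peak, and 7 of 10 genes were above the latter. The median fragment count was 90.5 compared to 64, and the median width was 807.5 bp compared to 796 bp.

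**Figure D3:**
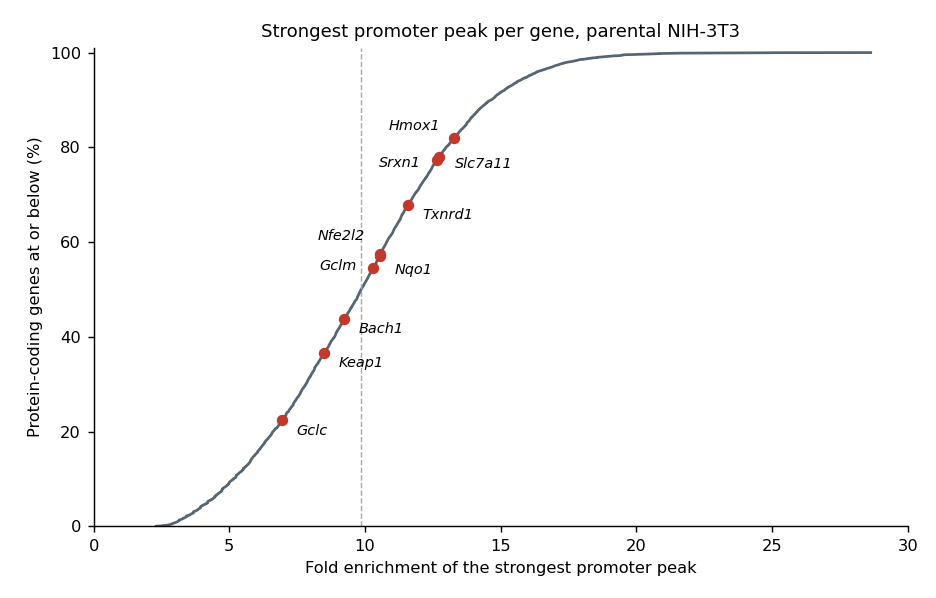
Cumulative share of the 11788 protein-coding genes with a promoter peak (vertical axis, %) by the fold enrichment of their strongest promoter peak (horizontal axis). Red points mark the 10 genes, from Gclc at 6.94 to Hmox1 at 13.3, and the dashed line marks the median of the coding genes, 9.86.

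In 8 of the 10 genes the highest fold was not at the promoter, but in 5 of these 8 the stronger peak lay within 1 kb of the start of another gene. The other 3 were Bach1, Hmox1 and Gclc, each with its strongest peak upstream. The promoter peaks were set against every other peak in or within 25 kb of the gene. No such count over all coding genes is given, so whether 8 of 10 is particular to this set is not known. Fragment counts gave a more cautious picture. The intervals of the strongest promoter peak and of the strongest other peak overlapped in 7 genes, and in the remaining 3 (Nqo1, Srxn1 and Txnrd1) the promoter was deeper.

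**Figure D4:**
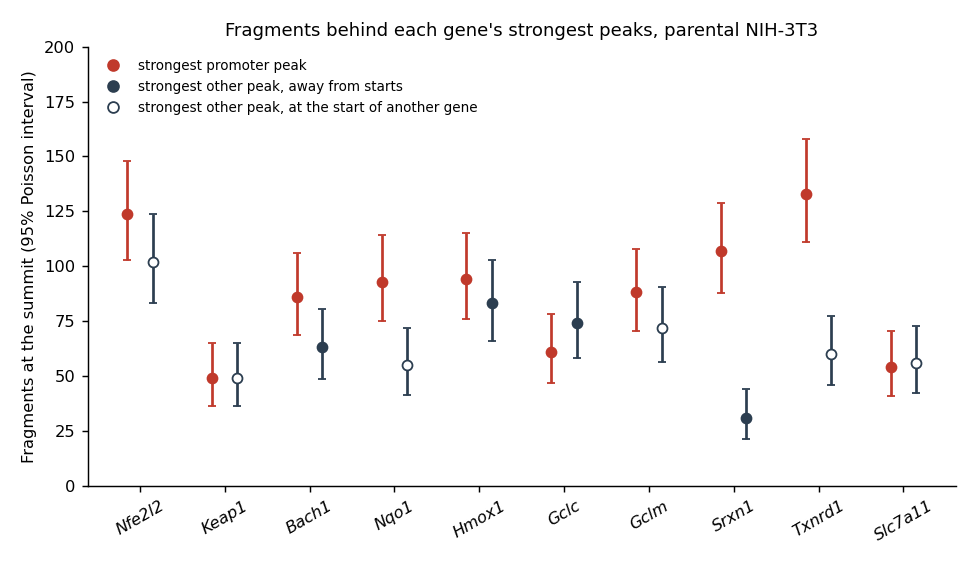
Fragments at the summit of the strongest promoter peak (red) and of the peak with the highest fold elsewhere (dark, open where it lies at the start of another gene) for each of the 10 genes. Bars are exact 95% Poisson intervals, which overlap in all genes but Nqo1, Srxn1 and Txnrd1.

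Of the 67 peaks, 12 were at promoters of the genes, 23 elsewhere in the genes and 32 outside them. The nearest coding start belonged to the gene itself for 35 of the 55 peaks that were not at promoters (63.6%, 50.4 to 75.1). Many of the others were Slc7a11 peaks far from its 5′ end, nearest to Pcdh18, so the long annotation of this gene weighs on the share. For 8 peaks (11.9%), the starts found closer than 1 kb belonged to other genes alone, and neither share is given over all coding genes. The remaining 47 were distal, more than 1 kb from any start. Relative to their length the regions had a median of 0.768 peaks per 10 kb, compared to 0.384 over coding genes, and 8 of the 10 were above this value. The 0.384 is over all coding genes, of which 53.7% had a promoter peak, while all 10 genes had one. The median fold of the distal peaks was 5.47, compared to 5.54 for all 47192 distal peaks of the library.

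AP-1 was no more frequent at the distal peaks of these genes than in the library. The consensus lay at the summit of 7 of 47 (14.9%, Wilson interval 7.41 to 27.7), compared to 26.4% of all distal peaks. Of the 7, 3 belonged to Bach1, and without the peaks of Bach1 the share was 9.76%. By gene, 5 of 10 had such a peak in or within 25 kb (Keap1, Bach1, Hmox1, Gclc and Slc7a11), compared to 33.8% of coding genes. The share by gene is not matched for the number of distal peaks, whose median was 3.5 for the 10 genes and 1.0 for coding genes. The ARE core lay at the summit of 3 of 47 (6.38%, 2.19 to 17.2), compared to 8.19%, so for this element the share was close to the background. Over the whole interval of distal peaks, the combined element TGACTCAGC was found in 5 of 47 (10.6%, 4.63 to 22.6; 0.469 per kb), compared to 4.45% (0.138 per kb), and 4 of its 7 copies were those of Hmox1.

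**Figure D5:**
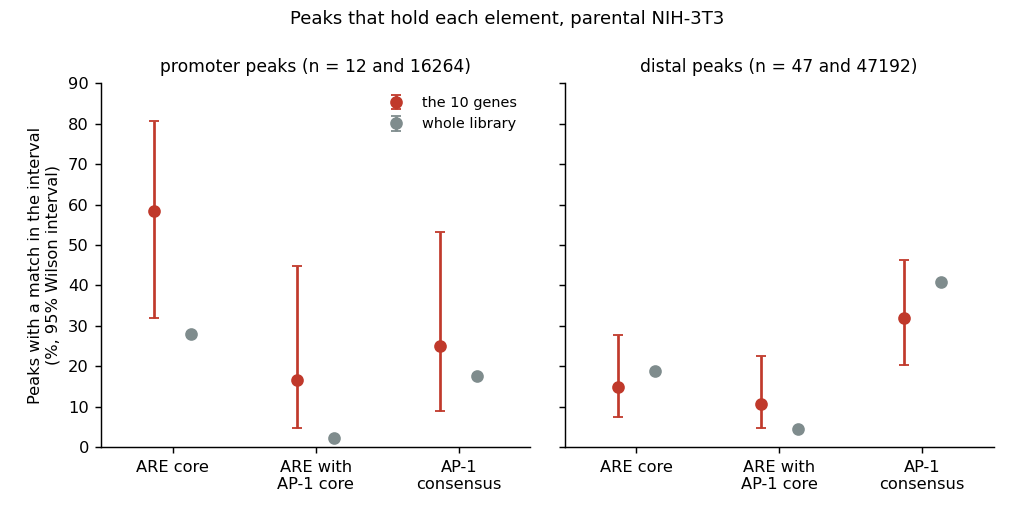
Share of peaks with a match anywhere in the interval (vertical axis, %, with 95% Wilson intervals) for the ARE core TGACNNNGC, the ARE with AP-1 core TGACTCAGC and the AP-1 consensus, in promoter peaks (left) and distal peaks (right). For the 10 genes (red), 58.3% of promoter peaks held an ARE core and 31.9% of distal peaks an AP-1 consensus, compared to 27.9% and 40.8% in the whole library (grey).

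Other elements of promoters were counted in the same windows at the summits. The GC box, GGGCGG on either strand, was at the summit of 4 of 12 promoter peaks (33.3%, 13.8 to 60.9) and of 30.5% of all peaks within 1 kb of a start. For CCAAT on either strand the counts were 2 of 12 (16.7%) and 19.9%. The cAMP response element TGACGTCA was at 0 of the 12 summits (Wilson upper limit 24.2%) and at 1.36% of all. In the RefSeq table of promoters (GRCm38.p6, 250 bases before to 50 after each start, 32851 promoters), 8 of the 10 genes matched, with 10 promoters, and Hmox1 and Gclc had no entry. Of these 10 promoters, 4 held an ARE core, namely those of Nfe2l2, Srxn1, Gclm and the middle start of Txnrd1, compared to 12.4% of all promoters. The GC box was in 7 of 10, compared to 35.7%, CCAAT in 3 of 10, compared to 37.4%, and AP-1 in 1 of 10 (Srxn1), compared to 5.20%. These RefSeq shares are over all promoters, accessible or not, while all 10 genes had an accessible promoter, so they are not matched. Txnrd1 gave more than 1 of the 10 promoters.

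Most genes of the wider pathway had a promoter peak as well. Of 48 further genes of the pathway, 46 had a promoter peak, compared to 53.7% of all coding genes. Their median fold was 8.71, below the 9.86 of coding genes with a promoter peak, and the 2 without were Nfe2l3, a relative of NRF2, and the carbonyl reductase Cbr1. All 10 genes of glutathione use, all 5 of the thioredoxin system, all 6 of NADPH supply and all 6 of haem and iron handling had one, as did 11 of 12 regulators and partners and 8 of 9 detoxification genes. TGACTCAGC lay at a summit in or within 25 kb of 6 of the 48 genes, compared to 6.82% of all coding genes. Among the 15106 coding genes with 2 to 15 peaks in or near them, the share was 8.98%. The 6 pathway genes are given as values only. For Mafg, which encodes a small MAF partner of NRF2, TGACTCAGC was in a promoter peak (chr11:120630137-120630279, fold 3.21, 30 fragments). For Sqstm1, which encodes the KEAP1-binding protein p62, it lay at −1325 bp (chr11:50212060-50212234, fold 3.62, 41 fragments), and for the transporter gene Abcc4 at −3662 bp (chr14:118709576-118710160, fold 9.13, 66 fragments). The other peaks of this kind were at 24192 bp from the 5′ end of Gpx4 (fold 6.54), at 16228 bp of Tkt (fold 3.80) and at 51713 bp of Hmox2 (fold 5.01).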

How the data were processed

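Per the labels and the methods of the study, paired-end ATAC-seq reads of 1 parental NIH-3T3 library were aligned to mm10 and peaks were called on whole fragments, without pooling. The submitters' processing notes name STAR 2.5.3a, Picard, MACS2 2.1.1.20160309, SAMtools and deepTools. A shift of fragment ends for Tn5 is not mentioned. The authors deposited a fold enrichment (a ratio with 1 added to both terms), −log10 values of p and q, and a score, for every peak. The score was not used.

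The fragment pileup at each summit was solved from fold and −log10 p by bisection and differed from a whole number by more than 0.02 in 2 peaks. The solver and the motif search were tested on simulated data. Intervals (exact Poisson, Wilson) are at 95% and cover counting error only. Since only 1 library was analysed, no test was made. Peaks were compared with GENCODE M21 and the GRCm38 sequence, the same build as mm10. A promoter peak lies within 1 kb of any transcript start of the gene, a distal peak more than 1 kb from any start of any gene, and flanks reach 25 kb. Motifs had to lie wholly in the 50 bp to either side of the summit unless the whole peak is named.

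The genes and lists were chosen with earlier results of these data known. Named were all 10 genes, their strongest promoter and other peaks, every peak with AP-1 or the ARE core at its summit, genes whose starts share a peak, and pathway or marker genes that go against their list. Other named peaks, TGAGNNNGC and TGATGCAA were chosen after values were seen. The cutoff of 3 copies of TGACTCAGC is the count of the Hmox1 peak at −9588 bp. Alternatives were other distances, flanks, thresholds and windows. The software was SciPy 1.17.1, pandas 2.3.3, NumPy 2.4.6 and matplotlib 3.10.9 under Python 3.11.15.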

Additional observations from a re-analysis of the deposited data

How the results depend on the processing

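The share of the 47 distal peaks with an AP-1 consensus moved with the window searched. It was 14.9% within 50 bp of the summit, 6.38% within 25 bp, 29.8% within 100 bp and 31.9% in the whole peak, while the share of all distal peaks was 26.4%, 13.5%, 36.5% and 40.8%, so that the share at these genes was the lower under each of these 4 windows. A q of 1e-05 or below, a flank of 10 kb and a flank of 50 kb gave 16.7%, 18.8% and 15 of 75 peaks. All 10 genes had a promoter peak under each of the 5 other definitions tried, for which no share of coding genes is given. The count of 67 peaks ranged from 45 (fold of at least 5) to 100 (flank of 50 kb). Leaving out the peaks of Slc7a11 more than 100 kb from its 5′ end, an alternative chosen after seeing the data as was leaving out Bach1, gave 56 peaks and 16.2%. No paired analysis was possible because there was a single library and no second group. The list gives no number of reads for the library, and peaks under its q threshold cannot be seen.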

Other observations

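Of the 11788 coding genes with a promoter peak, 95 (0.806%) had TGACTCAGC within 50 bp of the summit of such a peak. Among them, named after the list was seen, were Bach1 and Mafg of the NRF2 pathway, the pirin gene Pir, the AP-1 subunit gene Fosl1, the cytokine gene Il6, the chaperone gene Hsp90aa1 and the serine synthesis gene Psat1. These genes are a choice and do not describe the list, which also holds Ctla2b, Hps1, Dst and Cd38. The strongest promoter folds of Fosl1 (4.97) and Mafg (4.02) were low in it. Some entries, such as Pfn1 and Eno3, carry the same fold (5.34).

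The 17 peaks with at least 3 copies of TGACTCAGC were found on many chromosomes. Only those nearest to Hmox1 (−9588 bp), Kdm6b (2843 bp), Ahnak2 (4685 bp) and Lexm (3491 bp) had their summit within 10 kb of a coding start, and their folds were 14.2, 4.25, 5.11 and 4.41. The highest fold, 15.99, was that of the peak at −174455 bp from the start of Eya1.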
